A study of Mus musculus with 2 samples.

Results

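C1q-high macrophages were the Csf1r-expressing cells of J558 allografts that carried many transcripts of the complement C1q chains. They were chosen from their measured counts: a kept cell was a member if it had at least 1 unique molecular identifier (UMI, 1 counted transcript) of Csf1r, under 3 UMIs of Trap1a, at most 1 UMI of the 3 Cd3 genes together, and at least 10 UMIs of C1qa, C1qb and C1qc together. A cell was kept with over 2000 detected genes and under 15% mitochondrial UMIs. The rule found 1281 cells, of 6929 kept and 11123 deposited in all, with 117 in the vehicle library and 1164 in the TAK-931 library.

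J558 is a mouse plasmacytoma line that the labels call B lymphocyte, grown under the skin of immunocompetent female BALB/c mice of the same strain. The vehicle-treated mice received 0.5% methylcellulose by mouth, and the TAK-931-treated mice received TAK-931, an inhibitor of the DNA replication kinase CDC7, at 60 mg/kg by mouth once a day, both for 6 days. Whole tumours were dissociated with enzymes, depleted of red cells and loaded for 3′ single-cell RNA sequencing (scRNA-seq), with 1 library per group. Each library came from 1 allograft, picked by the study as the representative of its group. An age of 4 weeks is given for laboratory animals in general and not for these mice alone. With 1 library per group no difference between the treatments has a replicate check, so no test was made, and the effects of treatment, mouse, tumour dissociation and library cannot be told apart. All intervals below are 95% intervals and cover counting error only.

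C1q is the recognition part of the classical complement pathway: its 3 chains assemble into a molecule that binds antibody complexes and dying cells. Macrophages are the main source of C1q in tissues, and in tumours high C1q transcripts mark mature macrophages that take up dying cells and often carry Apoe, the lipid carrier, and Mrc1 or Folr2, receptors of tissue-resident macrophages. Monocytes that enter from blood carry Ly6c2, Plac8 and Ccr2 and lose them as they mature. Interferon gamma from T and NK cells induces MHC class II, guanylate-binding proteins and chemokines in macrophages through factors such as Irf1 and Ciita.

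The 3 C1q genes lie side by side on chromosome 4 of the mouse genome (GRCm38, minus strand), C1qb at chr4:136880129-136886187, C1qc at chr4:136889804-136893065 and C1qa at chr4:136895917-136898803. The MHC class II genes named most often below lie on chromosome 17, H2-Ab1 at chr17:34257689-34269419, H2-Aa at chr17:34282744-34287823 and H2-Eb1 at chr17:34305867-34316674, and the GTPase gene Irgm1 at chr11:48861968-48871683. The 200 bases before the RefSeq start of 5 of these genes are printed because their products either define the cells or were among those that differed between the libraries. They are read 5′ to 3′ along the gene's own strand from the RefSeq table of build GRCm38.p6, at chr4:136886201-136886400 (minus) for C1qb, chr4:136892915-136893114 (minus) for C1qc, chr17:34287824-34288023 (minus) for H2-Aa, chr17:34305667-34305866 (plus) for H2-Eb1 and chr11:48871421-48871620 (minus) for Irgm1. Capitals mark letters searched for on both strands. GAGGAA (the core bound by PU.1) and TGCTGA (part of the site of MAF factors) were searched in the C1q genes, and AGNAACNGA (part of the X box) and GATTGG (the Y box core), both elements of MHC class II promoters, in H2-Aa and H2-Eb1. GAAANNGAA (part of an interferon response element) was searched in Irgm1, where 2 matches overlap.
C1qb: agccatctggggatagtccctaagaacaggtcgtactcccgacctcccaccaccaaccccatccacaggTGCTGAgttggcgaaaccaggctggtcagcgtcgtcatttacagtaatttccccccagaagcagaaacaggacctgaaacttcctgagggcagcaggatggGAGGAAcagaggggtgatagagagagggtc
C1qc: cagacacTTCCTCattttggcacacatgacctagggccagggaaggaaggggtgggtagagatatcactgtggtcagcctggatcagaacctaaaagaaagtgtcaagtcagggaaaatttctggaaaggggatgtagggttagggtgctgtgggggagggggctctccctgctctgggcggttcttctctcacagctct
H2-Aa: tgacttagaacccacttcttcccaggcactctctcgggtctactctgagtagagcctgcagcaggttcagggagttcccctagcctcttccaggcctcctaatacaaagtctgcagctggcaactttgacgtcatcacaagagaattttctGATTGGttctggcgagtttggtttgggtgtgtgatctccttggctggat
H2-Eb1: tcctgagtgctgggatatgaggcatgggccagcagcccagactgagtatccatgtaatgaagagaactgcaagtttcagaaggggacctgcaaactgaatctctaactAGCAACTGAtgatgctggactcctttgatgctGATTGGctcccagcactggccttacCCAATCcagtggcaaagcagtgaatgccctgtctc
Irgm1: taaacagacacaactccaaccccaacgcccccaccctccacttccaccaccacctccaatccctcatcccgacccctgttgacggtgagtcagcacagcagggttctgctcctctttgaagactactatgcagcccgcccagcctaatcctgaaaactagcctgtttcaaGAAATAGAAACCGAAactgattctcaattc
In C1qb, GAGGAA lay 30 to 25 and TGCTGA 131 to 126 bases before the start, and in C1qc GAGGAA lay on the opposite strand, 193 to 188 bases before it. In H2-Eb1 the X box lay 92 to 84 bases and GATTGG 60 to 55 bases before the start, with a second GATTGG on the opposite strand 35 to 30 bases before it, and in H2-Aa GATTGG lay 49 to 44 bases before the start. In Irgm1 GAAANNGAA lay 30 to 22 and 24 to 16 bases before the start. Over 250 bases before the start, GAGGAA was in 23.3% of all 32851 promoters, TGCTGA in 16.1%, GATTGG in 14.6%, GAAANNGAA in 7.13% and AGNAACNGA in 4.42%. Over the same length, GATTGG was in 8 and AGNAACNGA in 3 of 9 listed MHC class II genes with a promoter entry, and GAAANNGAA was in 10 and AGNAACNGA in 4 of 11 interferon gamma-inducible GTPase genes. The RefSeq start of C1qc and Irgm1 lies inside the gene as GENCODE draws it, so part of the printed C1qc bases and all of the Irgm1 bases fall within those annotated genes. These are matches of letters, which say nothing of binding.

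The libraries held 4565 barcodes with 144767193 UMIs (vehicle) and 6558 barcodes with 77369283 UMIs (TAK-931). They shared 8 barcodes, none of them a member in both. J558 tumour cells, with at least 3 Trap1a UMIs, were 87.8% of kept cells in vehicle and 3.56% in TAK-931. Members had a median of 13499 UMIs and 3221 genes per cell in vehicle against 17023 and 3430.5 in TAK-931, with 4.87% and 5.22% mitochondrial UMIs, and summed to 1822992 UMIs in vehicle and 22656380 in TAK-931. Sequencing depth and RNA content per cell cannot be told apart in these values.

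C1q-high macrophages made up 3.40% of kept cells in vehicle (117 of 3441, exact binomial interval 2.82 to 4.06%) and 33.4% in TAK-931 (1164 of 3488, 31.8 to 35.0%), a difference of 30.0 percentage points (28.3 to 31.6, Newcombe interval). Tumour cells make up most of the denominator in vehicle. Among the Csf1r-positive cells that passed the limits on Trap1a and Cd3, members were 53.9% in vehicle (117 of 217, 47.0 to 60.7%) and 59.8% in TAK-931 (1164 of 1948, 57.5 to 61.9%), and the interval of this difference, -1.03 to 12.8 points around 5.84, held 0. Among kept cells with under 3 Trap1a UMIs they were 27.9% and 34.6%, 6.68 points apart (1.92 to 11.1).

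The limit of 10 C1q UMIs fell in a gap in vehicle and on a slope in TAK-931, as the plot of C1q transcripts per cell shows. Of the 217 Csf1r-positive vehicle cells, 97 had 0 to 2 C1q UMIs, 3 had 3 to 9, 1 had 15 to 24 and 116 had at least 25. Of the 1948 TAK-931 cells, 606 had 0 to 2, 178 had 3 to 9, 32 had 10 to 14, 38 had 15 to 24 and 1094 had at least 25. The TAK-931 cells just outside, with 5 to 9 C1q UMIs, had 4720 CPM (a gene's UMIs over the summed UMIs of the cells, scaled to a fixed total) of Apoe and 1099 CPM of Ly6c2. Those just inside, with 10 to 14, had 3624 and 971 CPM, and the cells with at least 25 had 18680 and 395 CPM. The cells on either side of the limit were thus alike in these values and unlike the main body of members.

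**Figure D1:**
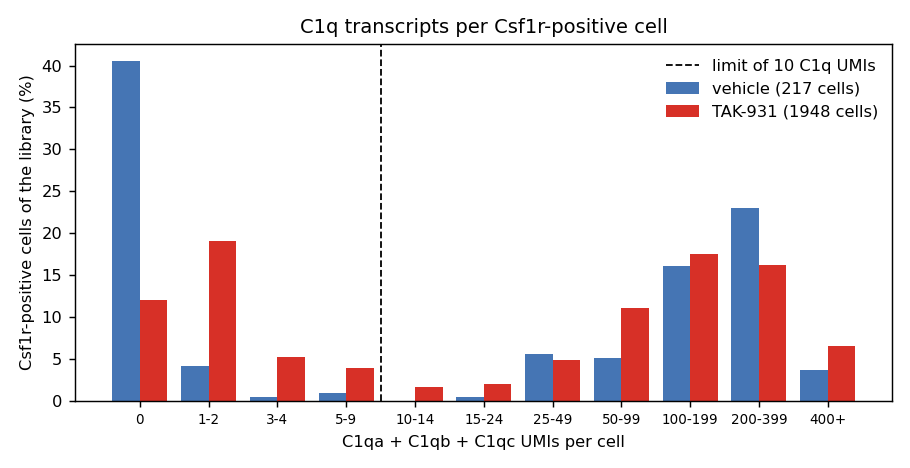
UMIs of C1qa, C1qb and C1qc together in each Csf1r-positive cell that passed the limits on Trap1a and Cd3 (x axis, bins), as a percentage of such cells of each library (y axis). The dashed line is the limit of 10 UMIs: the vehicle cells lie in groups at 0 and above 25 UMIs, while 178 TAK-931 cells lie at 3 to 9 UMIs and 70 at 10 to 24.

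The C1q values describe what the rule selected. Each of the 117 vehicle members had all 3 chains, as did 1152 of the 1164 TAK-931 members (99%). Per cell, C1q UMIs ran from 21 to 755 with a median of 199 in vehicle and from 10 to 1108 with a median of 156 in TAK-931. The chains took 1.35% of all members' UMIs in vehicle and 1.02% in TAK-931 and kept nearly the same proportions, with C1qa at 43.8% and 42.0% of C1q UMIs, C1qb at 31.1% and 33.6%, and C1qc at 25.1% and 24.4%. The 3 markers that the rule did not use were chosen with earlier results of these data known. Their levels describe the members and are no independent check of the name. Apoe was at 18229 CPM in vehicle members and 17945 in TAK-931 members, Ms4a7, a membrane protein of mature macrophages, at 1438 and 723 CPM, and Ccl8, a chemokine for monocytes and lymphocytes, at 2190 and 5122 CPM. In the Csf1r-positive cells below the limit, called C1q-low here (100 and 784 cells), Apoe was at 4715 and 3111 CPM, Ms4a7 at 206 and 101 CPM and Ccl8 at 18.6 and 226 CPM.

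Transcripts of these markers were also counted in cells that should lack them. The share of cells with at least 10 C1q UMIs was 0.397% of J558 cells in vehicle and 9.68% in TAK-931, and 8% and 12% of T cells (at least 2 Cd3 UMIs), whose C1qa level was 58.2 CPM in vehicle and 540 CPM in TAK-931. As the plot of markers shows, the level in T cells lay above that in C1q-low cells for each C1q chain in both libraries. What part of these came from free RNA and what part from barcodes holding a macrophage with another cell was not tested.

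**Figure D2:**
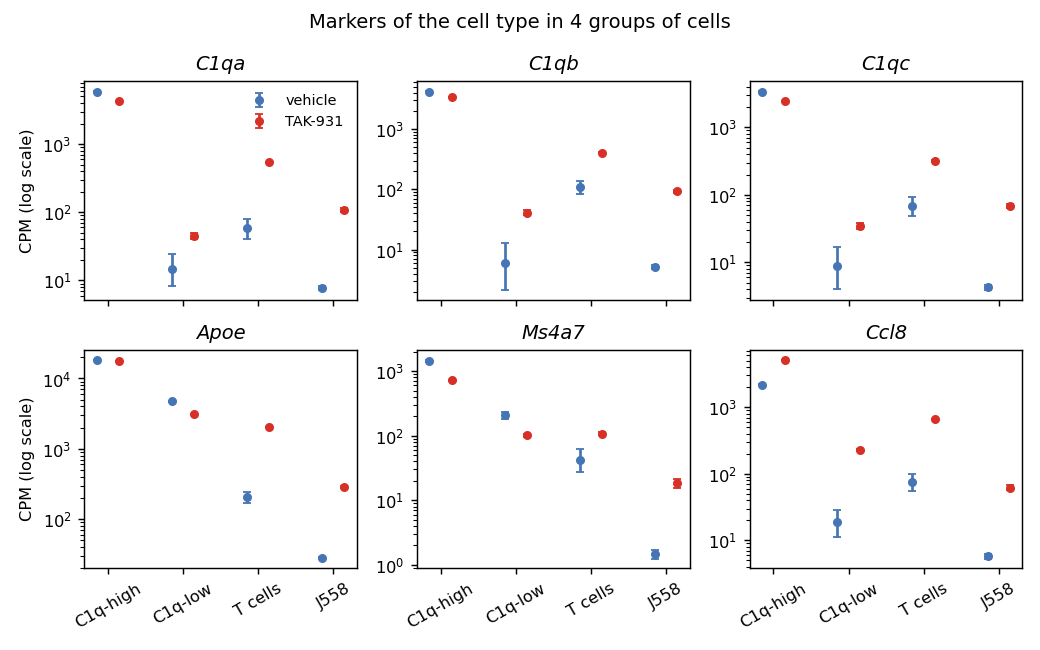
Summed level of the 6 markers (y axis, CPM, log scale) in C1q-high cells, C1q-low Csf1r-positive cells, T cells and J558 cells of each library (x axis), with exact Poisson intervals of counting error, which are smaller than the points where not visible. Each marker is highest in C1q-high cells of both libraries, and the levels in T cells and J558 cells are higher in TAK-931 than in vehicle.

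The profile of the members against all other kept cells is a description, since the rule chose the cells by their transcripts. Of 4641 genes with enough UMIs, 374 (8.06%) were at least 2-fold higher in members in both libraries and 302 (6.51%) at least 2-fold lower. The 15 that led were Ccdc152, Folr2 (a folate receptor), Cbr2, Nxpe5, Siglec1 (a sialic acid-binding receptor), Ccl8, Pf4 (a CXC chemokine), Fcna (ficolin A, a lectin of the complement pathway), Mrc1 (the mannose receptor), Trem2 (a lipid-sensing receptor), Cd163 (the receptor for haemoglobin complexes), Apoe, Selenop, Ms4a7 and Mertk (a receptor for dying cells). Folr2 was at 81.2 CPM in vehicle members against 0.194 CPM in other cells, and at 69.1 against 5.02 CPM in TAK-931, log2 ratios of 8.71 and 3.78. Mertk was at 53.8 against 0.187 CPM and at 51.2 against 6.86 CPM, log2 ratios of 8.17 and 2.90. The ratios were smaller in TAK-931 for each of the 15, where most of the other cells were not tumour cells.

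C1q-low Csf1r-positive cells are the closest group for comparison. Here 94 of 4705 genes (2.00%) were at least 2-fold higher in members in both libraries and 143 (3.04%) lower. Beside Ccl8, Folr2, Ccdc152, Nxpe5 and Pf4, the highest were Cela1, Npl, Scamp5, Igf1 and Enpp1. Ccl8 was 6.88 higher on the log2 scale in vehicle and 4.50 in TAK-931. Igf1, the growth factor, was at 94.9 CPM in vehicle members against 5.89 in C1q-low cells, and at 67.4 against 7.26 CPM in TAK-931.

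The lowest genes in members against C1q-low cells were Tnc, Rarres2, S100a8, Chil3, Mcemp1, S100a4, Thbs1, Ifitm1, Ltb4r1 and F10, among them genes of monocytes and neutrophils. Chil3, a chitinase-like protein of monocytes, was at 18.1 CPM in vehicle members against 134 in C1q-low cells, and at 16.0 against 112 CPM in TAK-931. Tnc and Rarres2 are carried by fibroblasts, and the summed level of 11 fibroblast and mural cell markers in C1q-low cells was 3323 CPM in vehicle and 1275 CPM in TAK-931, against 28.5 and 498 CPM in members.

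Between the libraries, 194 of 5059 genes with a mean of at least 20 CPM were at least 2-fold higher in TAK-931 members (3.83%) and 281 at least 2-fold lower (5.55%). The median log2 ratio of the 4292 genes with at least 50 UMIs in each library was -0.19, so most genes sat slightly lower in TAK-931. Relative to that median, 312 genes were 2-fold higher and 176 lower. At a lower limit of 5 CPM, used for the gene lists, 478 of 8552 genes were 2-fold higher (5.59%) and 715 lower (8.36%), with a median of -0.13. The counts for each list below are to be read against these shares, and "scaled" gives the list's median relative to the -0.19.

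**Figure D3:**
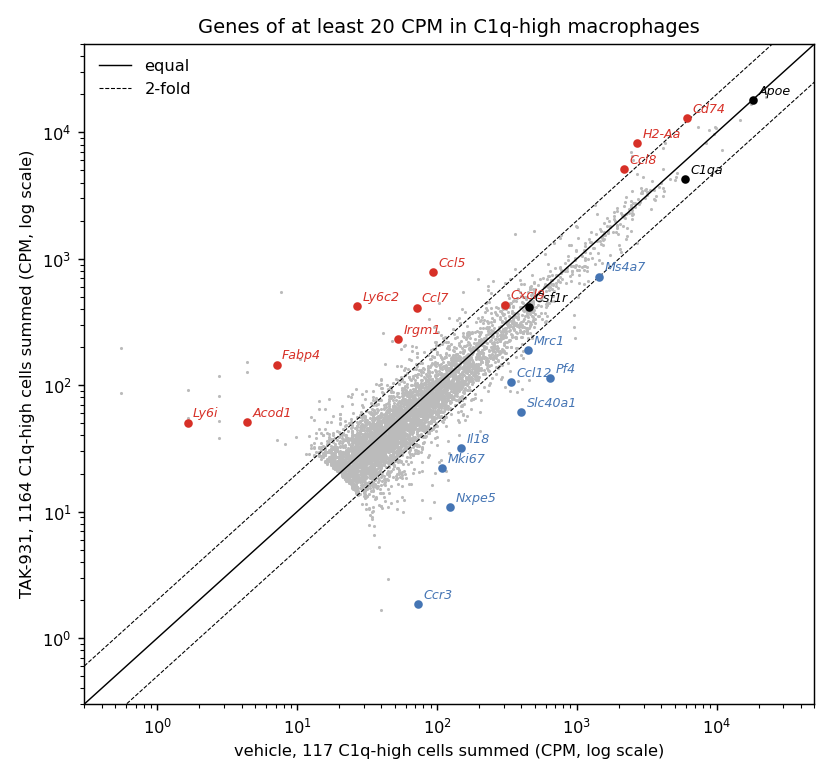
Summed level of each gene with a mean of at least 20 CPM in vehicle members (x axis, CPM, log scale) and TAK-931 members (y axis, CPM, log scale), without genes at 0 UMIs in a library, with lines of equal level and of 2-fold differences. Some named genes are marked in red (higher in TAK-931), blue (lower) or black (C1qa, Apoe and Csf1r): H2-Aa, Cd74 and Ccl8 are high in both libraries and above the upper line, and of the genes marked in blue Ccr3 and Nxpe5 lie furthest below the lower one.

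MHC class II genes, whose products present antigen to CD4 T cells, were higher by median in TAK-931 members. Of 9 listed genes with at least 5 CPM, 5 were at least 2-fold higher and 0 lower, with a median log2 ratio of 1.08 (scaled 1.27). H2-Aa was at 2690 CPM in vehicle and 8230 in TAK-931 (log2 ratio 1.61, 1.57 to 1.65), H2-Ab1 at 2479 and 6448 CPM (1.38) and H2-Eb1 at 2447 and 6942 CPM (1.5). Cd74, the chaperone of the class II chains, was at 6087 and 12876 CPM (1.08), and Ciita, the activator of the class II promoters, at 18.1 and 57.3 CPM (1.66, 1.16 to 2.21). The genes that edit and process peptides differed less, with H2-DMa at 394 and 550 CPM and Ifi30 at 673 and 626 CPM. In all, the listed class II genes took 15062 CPM in vehicle and 36114 CPM in TAK-931.

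Vehicle members ranged from no H2-Aa to the levels of TAK-931 members. Per cell, H2-Aa in vehicle members had a lower quartile of 265 CPM, a median of 2083 and an upper quartile of 5828, and 87.2% of cells had a UMI. In TAK-931 members the quartiles were 5427, 8937 and 11544 CPM, 99.9% of cells had a UMI, and the 10th percentile, 3018 CPM, lay above the vehicle median. After each cell was thinned to 4000 UMIs, 77.8% of vehicle members (69.2 to 84.9%) and 99.7% of TAK-931 members (99.1 to 99.9%) had an H2-Aa UMI, beside 1.46% and 29.8% of J558 cells. In vehicle, the 23 members with 25 to 99 C1q UMIs had 5497 CPM of H2-Aa and the 93 with at least 100 had 2300 CPM, whereas in TAK-931 the 310 and 784 such cells had 8088 and 8391 CPM. The C1q bands here and below are counts and not rates, so they also differed in depth. Median UMIs per cell in these bands were 9628 and 16142 in vehicle and 13849 and 18710 in TAK-931.

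C1q-low cells did not share this pattern. Their H2-Aa was at 5513 CPM in vehicle and 5394 in TAK-931, H2-Eb1 at 4052 and 4003 CPM, and the list's median log2 ratio was -0.15. Vehicle members were therefore below the C1q-low cells of their library in H2-Aa, and TAK-931 members above theirs. This contrast between the cell groups was not tested. The 11 dendritic cell markers summed to 22.5 CPM in vehicle members and 29.4 CPM in TAK-931 members. Xcr1, Itgae and Fscn1 were at 0 UMIs in vehicle members. In C1q-low cells the same markers summed to more, 195 CPM in vehicle and 96.8 CPM in TAK-931. The part of dendritic cells in the class II values of either cell group was not tested.

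**Figure D4:**
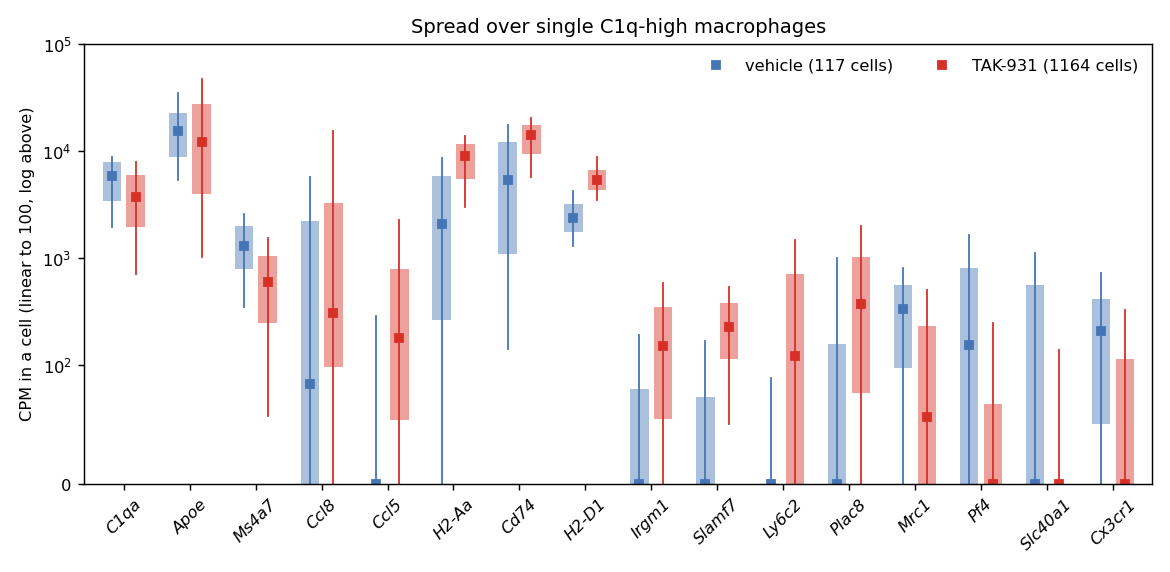
CPM of 16 genes in single C1q-high macrophages (y axis, linear up to 100 and logarithmic above) of each library, with the median (square), the quartiles (box) and the 10th to 90th percentile (line). H2-Aa, Cd74 and H2-D1 are spread over a higher range in TAK-931 members, while Mrc1, Pf4, Slc40a1 and Cx3cr1 have a lower upper quartile there.

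Of 14 MHC class I genes, 3 were at least 2-fold higher and 0 lower, with a median of 0.67 (scaled 0.86) in members and 0.50 in C1q-low cells. H2-D1, a classical class I chain, was at 2513 and 6096 CPM (1.28, 1.24 to 1.32), H2-K1 at 1345 and 2660 CPM (0.98), and B2m, their light chain, at 2704 and 4667 CPM (0.79). Tap1, the peptide transporter, was at 71.9 and 181 CPM (1.33) and Nlrc5, the activator of class I genes, at 8.78 and 24 CPM (1.45, 0.74 to 2.27). Not all genes of the pathway followed: the proteasome activator subunit Psme2 had a log2 ratio of -0.21 and the chaperone Calr one of -0.85.

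GTPases induced by interferon gamma, which act against intracellular microbes, had one of the highest list medians, 1.21 (scaled 1.40), with 9 of 15 genes at least 2-fold higher and 0 lower. The median in C1q-low cells was 1.54. Irgm1 was at 52.7 CPM in vehicle and 232 in TAK-931 (2.14, 1.85 to 2.45), Iigp1 at 47.7 and 224 CPM (2.23, 1.92 to 2.55), Gbp6 at 9.87 and 39.2 CPM (1.99) and Igtp at 40.0 and 110 CPM (1.45). Gbp7 was level, at 76.8 and 76.3 CPM. An Irgm1 UMI was found in 17.1% of vehicle members and 50.9% of TAK-931 members thinned to 4000 UMIs (2.98% and 8.06% of J558 cells), and in 39.3% and 81.1% without thinning.

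The wider list of interferon-stimulated genes had 6 of 27 genes at least 2-fold higher, 0 lower and a median of 0.48 (scaled 0.66; C1q-low cells 0.70). Irf7, a factor that amplifies type I interferon, was at 160 and 377 CPM (1.24) and Oasl1 at 39.5 and 112 CPM (1.51), while the antiviral genes Rsad2, at 104 and 84.0 CPM, and Ifit3, at 32.4 and 35.3 CPM, lay within 2-fold. Among the signalling factors, Irf1, which interferon gamma induces, was at 58.7 and 206 CPM (1.81, 1.54 to 2.10), and Socs1, the feedback inhibitor, at 23.0 and 82.3 CPM (1.84). Batf2, a factor of the same response, was among the 12 highest named genes, at 4.94 and 28.6 CPM (2.53) from 9 UMIs in vehicle, and its log2 ratio was 1.74 among members without a Ly6c2 UMI.

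CC chemokines, which attract monocytes and T cells, split in both directions, with a median of 1.32 (scaled 1.51; C1q-low cells 1.43). Of 10 genes, 6 were at least 2-fold higher and 2 lower. Ccl2 and Ccl7, ligands of the monocyte receptor Ccr2, were at 104 and 448 CPM (2.11, 1.90 to 2.33) and at 71.3 and 411 CPM (2.53, 2.28 to 2.79). Ccl3 was at 70.2 and 201 CPM (1.52) and Ccl4 at 253 and 672 CPM (1.41). Ccl5 was at 93.8 and 782 CPM (3.06, 2.84 to 3.29, and 3.95 among members with at least 3 Csf1r UMIs), though 26.3% of its vehicle UMIs came from 1 cell. A Ccl5 UMI was found in 12% of vehicle members and 55.4% of TAK-931 members thinned to 4000 UMIs, but also in 0.298% and 22.6% of J558 cells. T and NK cells also carry Ccl5. The 14 T cell markers summed to 41.7 CPM in vehicle members and 86.8 CPM in TAK-931 members, with Cd3d, Cd3e, Cd3g, Trac, Lck and Icos at 0 UMIs in vehicle. The rule held the 3 Cd3 genes together to at most 1 UMI per member, so their low values follow from it. The 9 NK cell markers summed to 19.7 and 53.3 CPM, with 7 at 0 in vehicle. The part of T and NK cells in the Ccl5 values was not tested. Ccl12, whose gene lies between Ccl7 and Ccl8 on chromosome 11, was lower, at 338 and 105 CPM (-1.68, -1.81 to -1.55), as was Ccl24, at 51.6 and 12.2 CPM (-2.08).

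The log2 ratio of Ccl8 was 1.23 among all members and 1.88 among those without a Ly6c2 UMI, and its level was very uneven from cell to cell. Its median per cell was 84.0 CPM in vehicle and 307 CPM in TAK-931, with an upper quartile of 2241 and 3288 CPM and a maximum of 24707 and 105382 CPM. The tenth of members with the highest Ccl8 levels, 12 and 116 cells, held 61.9% of its UMIs in vehicle and 68.5% in TAK-931. It rose with the C1q UMIs per cell, whose bands also differed in depth. TAK-931 members with 10 to 24, 25 to 99 and at least 100 C1q UMIs had 376, 653 and 6728 CPM of Ccl8. The 23 vehicle members with 25 to 99 had 0 UMIs against 2491 CPM in those with at least 100.

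Of 9 CXC chemokines, 0 were at least 2-fold higher and 2 lower. Their median, -0.20 (scaled -0.01), had no stable sign and ran from -0.44 to 0.16 over the alternatives, with the highest value at a minimum of 50 CPM. Pf4 was at 640 and 114 CPM (-2.49, -2.59 to -2.39, and -1.87 among members without a Ly6c2 UMI) and Cxcl3, a neutrophil chemokine, at 13.2 and 3.80 CPM (-1.79). Cxcl9 and Cxcl10, interferon-induced ligands for activated T cells, were at 308 and 433 CPM (0.49) and at 117 and 179 CPM (0.61), with 22.1% and 33.3% of their vehicle UMIs in 1 cell. A Cxcl9 UMI was found in 29.9% of vehicle members and 61.1% of TAK-931 members, beside 0.728% and 29.0% of J558 cells. After thinning the shares were 20.5% and 41.0% of members, beside 0.265% and 6.45% of J558 cells.

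Among cytokines, 4 of 14 were at least 2-fold higher and 4 lower, with a median of -0.43 (scaled -0.24; C1q-low cells 0.21). Il18 was at 149 and 31.8 CPM (-2.23, -2.43 to -2.02), while its secreted inhibitor Il18bp was at 117 and 238 CPM (1.03). Il1b was at 436 and 282 CPM (-0.63) and Il1a at 28 and 10.8 CPM (-1.37), while their receptor antagonist Il1rn was at 86.7 and 174 CPM (1.00). Il10, the anti-inflammatory cytokine, was at 115 and 47.8 CPM (-1.27), Tnf at 80.6 and 135 CPM (0.74), Vegfa, the vessel growth factor, at 62.5 and 162 CPM (1.37) and Pdgfb at 76.8 and 29.8 CPM (-1.36). In C1q-low cells Il18 was at 33.4 and 36.2 CPM.

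Genes of costimulation and inhibition of T cells also split, with 4 of 17 at least 2-fold higher, 2 lower and a median of 0.23 (scaled 0.41). Cd274, which encodes PD-L1, was at 58.1 and 203 CPM (1.81, 1.53 to 2.10), and a UMI was found in 20.5% and 49.1% of members after thinning, beside 15.7% and 20.2% of J558 cells. Cd40 was at 20.3 and 50.3 CPM (1.31). Slamf7, a receptor among the 12 highest named genes, was at 41.1 and 256 CPM (2.64, 2.31 to 2.99) and in 21.4% and 58.6% of thinned members, beside 34.7% and 29.0% of J558 cells. The inhibitory receptors Siglece, at 56.5 and 13.1 CPM (-2.11), and Havcr2, which encodes TIM-3, at 78.4 and 32.7 CPM (-1.26), were lower, and the costimulatory ligand Cd86 was at 114 and 119 CPM.

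Macrophage identity genes as a group stood near 0, with 0 of 20 at least 2-fold higher, 3 lower and a median of -0.01 that ran from -0.13 to 0.18 over the alternatives, the highest when scaled. Adgre1, which encodes F4/80, was at 283 and 348 CPM, Csf1r, the receptor for the growth factor CSF1, at 458 and 415 CPM and Mertk at 53.8 and 51.2 CPM. The 3 that were lower were Cd81, a tetraspanin, at 405 and 93.4 CPM (-2.12), Cx3cr1, the fractalkine receptor, at 307 and 95.9 CPM (-1.68), and Maf, a factor of mature macrophages, at 398 and 172 CPM (-1.21). Ms4a7 missed the 2-fold limit at -0.99 (-1.05 to -0.93).

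Genes of tissue-resident macrophages were lower by median, -0.30 (scaled -0.11), with 3 of 16 at least 2-fold higher and 5 lower. The genes given below were lower or within 2-fold. As a sum the listed genes went the other way, at 5093 CPM in vehicle and 7643 CPM in TAK-931. Mrc1 was at 449 and 189 CPM (-1.25, -1.35 to -1.14), and a UMI was found in 59.8% (50.4 to 68.8%) and 31.7% (29.0 to 34.5%) of thinned members, beside 0.331% and 0% (0 of 124) of J558 cells. Its log2 ratio was -0.97 when cells were thinned before the rule and -0.43 among members without a Ly6c2 UMI, both under 2-fold. Gas6, a bridging ligand for dying cells, was at 89.96 and 44.1 CPM (-1.03), and Cbr2 at 56.5 and 19.4 CPM (-1.54). Cd163 was at 44.4 and 10.9 CPM (-2.03), but it was found in only 10.3% and 2.41% of members and 35.8% of its vehicle UMIs came from 1 cell, and its log2 ratio among members without a Ly6c2 UMI was -0.46. Folr2, at 81.2 and 69.1 CPM, and Selenop, at 1471 and 1394 CPM, stayed within 2-fold. Among the members without a Ly6c2 UMI the list's median was 0.18.

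Monocyte genes were higher by median, 0.53 (scaled 0.72; C1q-low cells 0.52), with 8 of 19 at least 2-fold higher and 2 lower. The median was 0.21 with free RNA subtracted. The 2 lower genes are not among those given below. Ly6c2 was at 26.9 CPM in vehicle and 420 in TAK-931 (3.97, 3.56 to 4.4), Plac8 at 195 and 688 CPM (1.82, 1.67 to 1.98) and Ccr2 at 72.4 and 104 CPM (0.53). In C1q-low cells the levels were 323 and 1280 CPM for Ly6c2 and 1706 and 2713 CPM for Plac8. A Ly6c2 UMI was found in 14.5% of vehicle members and 62.2% of TAK-931 members, and in 8.55% (4.17 to 15.2%) and 47.0% (44.1 to 49.9%) after thinning, but also in 8.77% and 28.2% of J558 cells, so that the vehicle share was at the level of the tumour cells.

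Members with and without a Ly6c2 UMI differed within the TAK-931 library. The 440 without one had 24732 CPM of Apoe, 8321 of Ccl8, 328 of Mrc1, 124 of Folr2 and 256 of Plac8. The 724 with one had 13521, 3037, 98.8, 33.4 and 969 CPM of the same genes. H2-Aa was nearly level between them, at 8020 and 8366 CPM, while the 100 vehicle members without a Ly6c2 UMI had 2549 CPM. The same order ran along the C1q UMIs per cell. TAK-931 members with 10 to 24, 25 to 99 and at least 100 C1q UMIs had 3837, 10396 and 21066 CPM of Apoe, 174, 428 and 844 CPM of Ms4a7, and 904, 788 and 282 CPM of Ly6c2. These 3 bands held 6.01%, 26.6% and 67.4% of TAK-931 members.

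Lipid-handling genes had a median of 0.09 (scaled 0.28; C1q-low cells 0.81), with 4 of 23 at least 2-fold higher and 2 lower. Trem2 was at 314 and 181 CPM (-0.80) and Msr1, a scavenger receptor, at 335 and 107 CPM (-1.64), whereas the cholesterol exporter Abcg1 was at 222 and 382 CPM (0.79), the lysosomal cholesterol carrier Npc2 at 1000 and 1781 CPM (0.83) and the lipid receptor Cd36 at 28.5 and 61.2 CPM (1.10). Fabp4, a fatty acid carrier, was at 7.13 and 145 CPM (4.35), but in TAK-931 the tenth of members with the most Fabp4 held 93.9% of its UMIs. Its log2 ratio was 2.10 without the members that held other lineages' UMIs, 3.05 among members with at least 100 C1q UMIs and 3.34 with free RNA subtracted. Endothelial cells carry Fabp4 too, and 10 endothelial markers summed to 62.0 CPM in vehicle members and 157 CPM in TAK-931 members, with Cldn5, Emcn and Flt1 at 0 UMIs in vehicle. Their part in the Fabp4 values was not tested. Genes for the uptake of dying cells had a median of -0.37 (scaled -0.18), with 2 of 16 higher and 1 lower, and Axl was at 226 and 150 CPM and Lrp1 at 293 and 166 CPM. Lysosomal genes had a median of -0.11 that became 0.08 when scaled, with 1 of 19 higher and 0 lower.

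Of the 16 complement genes tested, the C1q chains included, 5 were at least 2-fold higher in TAK-931 members and 0 lower, with a median of -0.01 (scaled 0.18) that ran from -0.23 to 0.22 over the alternatives. C1qa was at 5908 and 4273 CPM (-0.47, -0.50 to -0.44), C1qb at 4191 and 3417 CPM (-0.29) and C1qc at 3380 and 2478 CPM (-0.45), genes that the rule used. C3, the central component, was at 42.8 and 148 CPM (1.79, 1.47 to 2.13), C4b at 29.1 and 70.1 CPM (1.27) and factor B, Cfb, at 102 and 262 CPM (1.36, 1.15 to 1.58). Serping1, the inhibitor of the C1 proteases, was at 0 UMIs in vehicle, where the limit of 3 counts makes it at least 21.2-fold higher in TAK-931, at 35.0 CPM. C1ra, a C1 protease, was the fifth, at 3.84 and 9.22 CPM (1.26). C3, C4b and Serping1 are also made by fibroblasts, and the summed fibroblast and mural cell markers were higher in TAK-931 members (28.5 and 498 CPM, as given above). All 11 of these markers had UMIs in TAK-931 members, and Dcn, Lum, Pdgfra and Pdgfrb had 0 in vehicle members. Their part in the result was not tested.

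Genes of iron export and haem breakdown were lower by median, -0.34 (scaled -0.16; C1q-low cells 0.30), with 1 of 12 at least 2-fold higher and 2 lower. Slc40a1, which encodes the iron exporter ferroportin, was at 400 and 61.2 CPM (-2.71, -2.84 to -2.58), a log2 ratio that was -1.89 among members without a Ly6c2 UMI. Hmox1, haem oxygenase, was at 595 and 315 CPM (-0.92). In vehicle members Slc40a1 lay in the cells with the most C1q UMIs, which were also deeper. It was at 9.40 CPM in those with 25 to 99 C1q UMIs and 453 CPM in those with at least 100. The ferritin chains Fth1, at 17663 and 16753 CPM, and Ftl1, at 14719 and 12587 CPM, were among the most abundant transcripts and stayed within 2-fold.

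Genes of the cell cycle were lower by median in TAK-931 members. Of 30 S phase genes 0 were at least 2-fold higher and 15 lower, with a median of -0.96 (scaled -0.77) that was -0.01 over the genes of at least 50 CPM. Of 44 G2/M genes 0 were higher and 26 lower, with a median of -1.10 (scaled -0.91). In C1q-low cells the medians were 0.03 and -0.12. Mki67, a proliferation marker, was at 108 and 22.1 CPM (-2.29, -2.53 to -2.04), Top2a at 96.0 and 20.2 CPM (-2.25) and the thymidylate synthase Tyms at 26.3 and 4.24 CPM (-2.64). Of the 11 genes of CDC7 and the replicative helicase, 7 were at least 2-fold lower and 0 higher, with a median of -1.14 (scaled -0.95). Mcm6, a helicase subunit, was at 35.1 and 10.8 CPM (-1.70), while Dbf4, the partner of CDC7, was at 26.3 and 38.5 CPM (0.55), and Cdc7 itself had only 5 UMIs in vehicle members. The sizes moved with the free RNA estimate. Subtracting that from markers of other lineages gave -4.25 for Mki67, -6.07 for Top2a and -4.86 for Mcm6, and that from 6 J558 genes gave -2.43, -2.46 and -1.84.

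These genes came from few vehicle cells. A UMI of Mki67 or Top2a was found in 22 of 117 vehicle members (18.8%, 12.2 to 27.1%) and 85 of 1164 TAK-931 members (7.30%, 5.87 to 8.95%) after thinning, beside 57.6% and 62.9% of J558 cells. In vehicle, 22.3% of Mki67 UMIs and 25.7% of Top2a UMIs came from 1 cell, and the 93 members with at least 100 C1q UMIs had 121 CPM of Mki67 against 14.1 CPM in the 23 with 25 to 99. Of the 14 J558 markers, each with UMIs in both libraries, the rule held Trap1a under 3 UMIs per member. The summed level of the 14 was 1425 CPM in vehicle members and 530 CPM in TAK-931 members. Most of it came from the immunoglobulin chains Iglc1, at 955 and 287 CPM, and Igha, at 202 and 43.1 CPM, while Jchain was at 27.98 and 27.2 CPM and Sdc1 at 2.19 and 14.6 CPM. Their part in the result was not tested.

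The p53 targets had a median of 0.32 (scaled 0.50), with 3 of 18 at least 2-fold higher and 0 lower. Mdm2, the p53 ligase, was at 108 and 250 CPM (1.22, 1.01 to 1.43), while Cdkn1a, the cell cycle inhibitor p21, was at 423 and 495 CPM and Ccng1 at 37.8 and 35.2 CPM. Subunits and targets of NF-kB had a median of 0.48 (scaled 0.67), with 2 of 18 higher and 0 lower, and immediate-early and heat-shock genes one of 0.35 (scaled 0.54), with 1 of 18 higher and 0 lower, Egr1 at 95.4 and 290 CPM (1.61). Macrophage transcription factors had a median of 0.40 (scaled 0.59), with 3 of 28 higher and 2 lower: Klf6, Mitf and Irf1 were higher, and Tfec, at 32.9 and 9.31 CPM (-1.82), and Maf were lower.

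Of the remaining lists, chemokine and growth factor receptors had a median of 0.25 (scaled 0.44), with 1 of 19 higher and 1 lower, Fc gamma receptors 0.06 (scaled 0.25), with none of 5 past 2-fold, the MS4A family -0.38 (scaled -0.20), with 2 of 9 higher and 1 lower, and non-classical monocyte genes 0.12 (scaled 0.31), with 2 of 9 higher and 3 lower. The sign of the last turned with the choice of cells and free RNA: it was -0.81 with free RNA subtracted, -0.31 with at least 100 C1q UMIs and -0.25 without Ly6c2-positive members. The Fc gamma receptor median ran down to -0.04. Glycolysis and hypoxia genes had a median of -0.13 that became 0.06 when scaled, and ran from -0.32 to 0.17 over the alternatives. Polarisation genes had one of -0.04 that became 0.15 and ran from -0.21 to 0.20, with 3 of 13 higher and 2 lower. Acod1, which makes itaconate, was at 4.39 and 50.7 CPM (3.53, 2.55 to 4.75) from 8 vehicle UMIs in 4 cells, whereas Nos2, the nitric oxide synthase, was at 0.549 and 4.15 CPM, from 1 vehicle UMI.

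**Figure D5:**
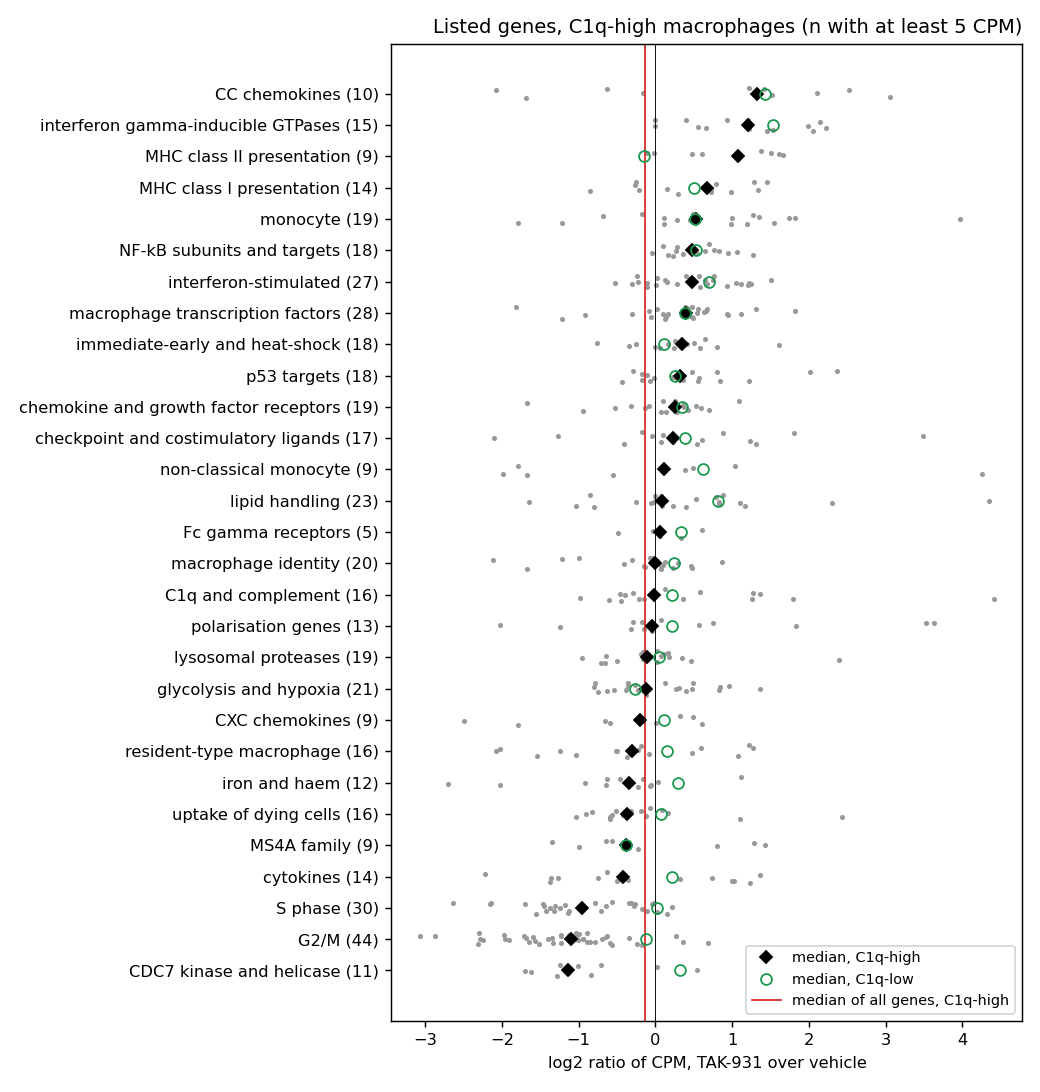
Log2 ratio of CPM, TAK-931 over vehicle (x axis), for each listed gene with a mean of at least 5 CPM in members (grey points), with genes at 0 UMIs in vehicle set at a floor of 3 counts, the median of each list (y axis, with the number of genes) in C1q-high cells (diamonds) and in C1q-low cells (circles). The red line is the median of all genes, -0.13: CC chemokines, GTPases and MHC class II genes lie furthest above it and the replication and cell cycle lists furthest below, and for MHC class II the C1q-low median lies at -0.15.

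The highest ratios among all genes that fit the naming rule rested on few vehicle UMIs. Ly6i, a relative of Ly6c2, was at 1.65 and 50.4 CPM (4.94, 3.39 to 7.22) from 3 vehicle UMIs, and its log2 ratio was 0.85 among members without a Ly6c2 UMI. Mex3b, an RNA-binding protein, had 1 vehicle UMI and Egr2, a factor of alternative activation, 3, with log2 ratios of 4.23 (1.74 to 9.54) and 3.63 (2.08 to 5.92). Acod1, Atp6v0d2 (a subunit of the proton pump), Enc1, Snhg16, Met and Loxl3 had 3 to 8 vehicle UMIs each. Several of these ratios moved by over 1.5 times with the choice of cells: Met was at 1.48 and Snhg16 at 3.29 among members without a Ly6c2 UMI, and Egr2 at 5.03 and Loxl3 at 3.32 without the members that held other lineages' UMIs. Slamf7 and Ccl7 were the named genes on this side with the most vehicle UMIs, 75 and 130.

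The lowest ratios rested on more vehicle UMIs because the naming rule required it. It asked for at least 50 UMIs in the higher library, here vehicle, where members had far fewer UMIs in all. Ccr3, the eotaxin receptor, was at 73.0 CPM in vehicle, from 133 UMIs in 25.6% of members, and at 1.85 CPM in TAK-931 in 2.58% of members (-5.30, -5.84 to -4.79). Adamdec1, a metalloprotease of tissue macrophages, was at 39.5 and 1.68 CPM (-4.56, and -5.29 without the members that held other lineages' UMIs), Bank1, a scaffold protein better known in B cells, at 34.6 and 1.501 CPM (-4.53), and Nxpe5 at 123 and 10.9 CPM (-3.51, -3.77 to -3.24). A Nxpe5 UMI was found in 32.5% (24.1 to 41.8%) and 3.69% (2.69 to 4.94%) of thinned members, beside 0.0993% and 0% of J558 cells. P2ry13, a nucleotide receptor, was at 27.4 and 2.65 CPM (-3.37), Ptgs1, cyclooxygenase 1, at 89.4 and 8.87 CPM (-3.33), and Mmp13, a collagenase, at 94.9 and 11.8 CPM (-3.00). Slc40a1, Cela1, Tanc2, Npl and Pf4 completed the 12, with log2 ratios from -2.71 to -2.49. Among members without a Ly6c2 UMI the ratio was -4.42 for Ccr3, -3.68 for Bank1, -2.69 for Nxpe5, -2.59 for Ptgs1, -1.96 for Cela1 and -1.45 for Npl, each over 1.5-fold nearer to equal levels than among all members. Mmp13 was also lower in C1q-low cells, at 345 and 4.63 CPM, but its vehicle level there lay mainly in few cells. It was at 3135 CPM in the 10 with Ace or Treml4 UMIs and at 24.4 CPM in the 34 with Ly6c2 UMIs.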

How the data were processed

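The deposited files held raw UMI counts per gene and barcode, which the authors made from single-cell 3′ v3.1 libraries. The submitters' processing notes name Cell Ranger 6.0.0 and mm10, while the study's methods name a human build. The identifiers are mouse (32285 features). Members and gene lists were chosen with earlier results of these data known. Cells were kept as the study's methods state (over 2000 genes, under 15% mitochondrial UMIs). Counts were summed over members of each library and scaled to CPM. Levels have exact Poisson intervals, log2 ratios exact conditional binomial intervals, shares Clopper-Pearson intervals and differences of shares Newcombe intervals. A gene at 0 UMIs was set against a floor of 3 counts. UMIs were counted from 3′ ends, so levels are not per length. Named genes were the C1q genes and markers, the 15 highest against all other kept cells, the 10 highest and lowest against C1q-low cells, and the 12 highest and 12 lowest between libraries with at least 50 UMIs where higher. Of these last, genes below the level of all other kept cells, with a UMI in under 10% of members or with over 25% of UMIs in 1 cell in the higher library were left out, as were mitochondrial, ribosomal, haemoglobin, immunoglobulin and unnamed genes. All other genes belong to the lists (611 of 617 listed genes were among the features). Bands of C1q and Ly6c2 were chosen after seeing the data.

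Scrublet (scanpy 1.11.5) called 12 vehicle barcodes (0.263%) and 0 TAK-931 barcodes, too few to have worked. No doublets were removed beyond the rule's limits, and an alternative removed the highest scores (1 vehicle and 42 TAK-931 members). Other alternatives changed the limits on cells, C1q, Csf1r, Trap1a and Cd3, the gene minimum and the scaling, thinned the cells, or subtracted free RNA. The steps, run in pandas 2.3.3, scipy 1.17.1 and numpy 2.4.6 under Python 3.11.15, were tested on simulated data. Coordinates are from GENCODE vM21 (GRCm38, the build of mm10), and promoters from RefSeq (GRCm38.p6), read with 250 bases before the start. Some listed genes and searched letters are not reported here.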

Additional observations from a re-analysis of the deposited data

Results flagged for a closer look

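Barcodes with at most 2000 genes and under 15% mitochondrial UMIs were not kept, yet some met the rest of the rule. C1q-high cells were 4.63% of these barcodes in TAK-931 (77 of 1663, 3.67 to 5.75%) and 2.11% in vehicle (20 of 950, 1.29 to 3.23%), with a median of 34.0 and 34.5 C1q UMIs per cell. Among barcodes with at least 15% mitochondrial UMIs they were 3.70% in TAK-931 (52 of 1407) and 0.575% in vehicle (1 of 174). These shares were not tested.

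The MHC class II list differed between libraries in one cell group and not in the other: its median log2 ratio was 1.08 in C1q-high macrophages and -0.147 in C1q-low cells. With 1 library per group this difference was not tested. The C1q-low cells also differed between libraries in the summed dendritic cell markers, at 195 CPM in vehicle and 96.8 CPM in TAK-931.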

How the results depend on the processing

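No paired analysis was possible because each group held 1 library and the labels give no replicate numbers. No library was left out.

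The difference in the members' share of kept cells, 30.0 points, was 24.9 with over 1000 genes, 23.2 with over 500 genes, 32.1 with at least 5 C1q UMIs, 23.0 after thinning, 24.6 with at least 3 Csf1r UMIs, 22.8 without any Trap1a or Cd3 UMI and 19.8 with at least 100 C1q UMIs. With the last limit the difference among Csf1r-positive cells was -2.61 in place of 5.84 points. The counts of 194 and 281 genes became 312 and 176 when scaled by the median ratio, 478 and 715 with a minimum of 5 CPM, and 105 and 118 with 50 CPM. The monocyte median, 0.53, was 0.21 with free RNA subtracted, 0.99 with 50 CPM and 0.23 without Ly6c2-positive members. The lipid-handling median, 0.09, was 0.31 after thinning, 0.31 without Trap1a or Cd3 UMIs and 0.35 without Ly6c2-positive members. The MHC class I median, 0.67, was 0.86 when scaled. The MHC class II median, 1.08, was 1.04 with over 1000 genes, over 500 genes, at least 5 C1q UMIs and thinning, 1.19 with at least 3 Csf1r UMIs, 1.21 without cells holding other lineages' UMIs, 0.89 as the mean of cells, 1.27 scaled, 1.19 with free RNA subtracted, 0.84 with 50 CPM, 1.29 with at least 100 C1q UMIs and 1.12 without Ly6c2-positive members. Of the 15 leading genes against other cells, 9 remained with a minimum of 200 UMIs. The causes were not tested.

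The G2/M and interferon-stimulated medians kept their sign over all alternatives run, and so did the 45 genes past 2-fold among the 51 for which they were run. Of these 45, Mrc1, Cd163 and Ly6i fell under 2-fold without Ly6c2-positive members, at -0.43, -0.46 and 0.85, and Mrc1 also after thinning, at -0.97. Ratios of 25 moved by over 1.5 times, among them Npl to -1.45, Slc40a1 to -1.89, Pf4 to -1.87, Met to 1.48 and Batf2 to 1.74 without Ly6c2-positive members. Fabp4 ran down to 2.10 without cells holding other lineages' UMIs. The S phase median was -0.01 with 50 CPM, -0.52 as the mean of cells and -1.28 with free RNA subtracted. Over the 19 or 20 alternatives run for each list, 9 of 29 lists changed sign: complement, macrophage identity, resident-type, CXC chemokines, lysosomal, polarisation, Fc gamma receptors, glycolysis and non-classical monocyte genes. The limits of 100 C1q UMIs and no Ly6c2 UMI, and a free RNA estimate from 6 J558 genes (1.89% in vehicle, 3.27% in TAK-931), were chosen after seeing the data. The estimate from other lineages' markers, red cells left out, used those of at least 20 CPM in the library. It was 2.93% from 23 markers in vehicle and 17.8% from 46 in TAK-931, so the gene sets differed. In members, single markers reached 94.3% (vehicle, endothelial) and 178% (TAK-931, neutrophil) of their level in the whole library. With 117 vehicle cells, a gene under 20 CPM there rested on few UMIs.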
